A study of Rattus norvegicus with 12 samples.

Results

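Arginase 2 (Arg2) and GTP cyclohydrolase 1 (Gch1) are 2 enzymes that bear on how much nitric oxide a cell can make. They are the 2 members described here, out of 3939 named genes measured, and each has 1 probe on the array. They were picked by their gene symbols in the platform annotation because of their log2 ratios per array and per rat at 6 h and 2 h after lipopolysaccharide (LPS), an endotoxin carried on the outer membrane of Gram-negative bacteria. Those ratios are therefore given as a description, with no test. On the GRCr8 rat assembly Arg2 (gene ID 29215) lies on chromosome 6 at 103669001-103694375, and Gch1 (gene ID 29244) lies on chromosome 15 at 22884006-22917412. No probe sequence was matched to either gene here, so their identity rests on the annotation.

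The study measured total RNA of rats given LPS on 12 2-colour arrays. Of the 6 rats, 3 are labelled 6 h (rats 2, 4 and 6) and 3 are labelled 2 h (rats 1, 2 and 3), and each was hybridised with RNA of the control pool for that time. Every rat has 2 arrays with the same pair of RNA samples, called fluor (LPS in channel 2) and flip (LPS in channel 1), so both arrays were averaged to 1 value per rat, with n counted in rats. Blood as the source is named in the series title alone. The sources used here do not give strain, sex, age, dose, route or what the control animals received, nor whether rat 2 of 6 h and rat 2 of 2 h are the same animal. A ratio carries no level, so the labelled tissue could not be checked against its marker genes.

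Each value is a log2 ratio, read as LPS over control pool. This direction is likely rather than stated. Within a rat the fluor array and the flip array had Pearson correlations over all probes between -0.23 and 0.25, which does not settle whether the flip arrays had been turned before deposit. The values are read as deposited because interleukin-1 beta (Il1b), which LPS is known to induce, lay above 0 on all 12 arrays. Under the other reading the flip arrays take the opposite sign, and a value alike on both arrays of a rat averages to near 0. Each time has 1 control pool, so the spread of the control animals is not in the errors, and any difference between the 2 pools is part of every difference between 6 h and 2 h.

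Arginase hydrolyses arginine to ornithine and urea. Arg2 is the mitochondrial isoform, found in many tissues outside the liver, and it draws on the same substrate as the nitric oxide synthases. Gch1 converts GTP to dihydroneopterin triphosphate, the rate-limiting step of tetrahydrobiopterin synthesis. Tetrahydrobiopterin is an essential cofactor of all nitric oxide synthases and of the aromatic amino acid hydroxylases. In rodent macrophages and vascular cells LPS and inflammatory cytokines are known to raise Gch1 together with the inducible nitric oxide synthase Nos2, and LPS is also known to induce Arg2 in macrophages.

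The proximal promoter of rat Gch1 is known for a cAMP response element next to a CCAAT box. It is shown because Gch1 is the member whose ratio had the same sign on every array. The sequence is that of RefSeq on GRCr8, chr15:22917413-22917662, minus strand, the 250 bases before the annotated start of the gene, 5′ to 3′. Capitals mark 3 motifs searched on both strands. They are the CCAAT box, the core of a cAMP response element (spelled TGACG) and the GC box (spelled GGGCGG).
Gch1: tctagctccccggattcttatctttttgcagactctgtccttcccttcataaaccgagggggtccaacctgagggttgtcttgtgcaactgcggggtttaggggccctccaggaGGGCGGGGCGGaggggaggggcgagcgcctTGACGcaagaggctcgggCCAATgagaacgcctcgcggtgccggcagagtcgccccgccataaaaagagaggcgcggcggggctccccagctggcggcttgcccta
The CCAAT match begins 88 bases before the annotated start and the TGACG match 106 bases before it, both on the strand of the gene. The 2 GGGCGG matches begin 136 and 131 bases before the start and share 1 base. Of 33469 rat promoters of the same length, 34% hold the CCAAT motif, 18.2% the cAMP response element core, 30.5% the GC box and 2.95% all 3. These are matches of letters, not measured binding sites.

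Gch1 was below 0 on all 12 arrays. At 6 h its log2 ratio was -0.88 on the fluor and -0.95 on the flip array of rat 2, -0.91 and -0.95 in rat 4, and -0.65 and -0.90 in rat 6. At 2 h it was -0.24 on the fluor and -0.36 on the flip array of rat 1, -0.86 and -0.53 in rat 2, and -0.85 and -0.14 in rat 3. The arrays at 6 h lay close together, whereas at 2 h the pair of arrays of rat 3 differed by 0.71. Of all genes, 6.37% were below 0 on every array.

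Averaged per rat, Gch1 stood at -0.91, -0.93 and -0.78 in rats 2, 4 and 6 at 6 h, against -0.30, -0.69 and -0.50 in rats 1, 2 and 3 at 2 h. Its mean was -0.87 ± 0.08 at 6 h and -0.50 ± 0.20 at 2 h (SD, n = 3 each). As read, the transcript was at 54.6% of the control pool at 6 h and at 70.9% of it at 2 h. Counted from the lowest mean, Gch1 ranked 18 of 3939 genes at 6 h and 64 at 2 h. With the flip arrays turned it stood at 0.057 at 6 h and -0.16 at 2 h, and ranked 2629 and 284. In a bulk sample, fewer cells of a type and less RNA per cell cannot be told apart.

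Averaged over both arrays, the 6 h and 2 h rats did not overlap in Gch1: the 6 h rat nearest to 0 (rat 6) was still below the lowest 2 h rat (rat 2). The difference of the means, 6 h minus 2 h, was -0.38 (standard error 0.12). Groups of rats that do not overlap, with 6 h lower, were found in 10.1% of all genes. The size of the difference depended on the orientation of the arrays. It was -0.16 on the fluor arrays alone (means of -0.82 at 6 h and -0.65 at 2 h) and -0.59 on the flip arrays alone (-0.93 at 6 h and -0.34 at 2 h). The groups overlapped on the fluor arrays, with rat 6 of 6 h at -0.65 and rats 2 and 3 of 2 h at -0.86 and -0.85. With the flip arrays turned the difference was 0.21.

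Arg2 was above 0 on 10 of 12 arrays. At 6 h its log2 ratio was 0.44 on the fluor and 0.29 on the flip array of rat 2 and 0.48 and 0.36 in rat 4, but -0.013 and -0.010 in rat 6. At 2 h it was 0.57 on the fluor and 0.30 on the flip array of rat 1, 0.73 and 0.57 in rat 2, and 0.58 and 0.20 in rat 3. Both arrays of rat 6 thus lay at the level of the control pool, while the other 2 rats of 6 h were near those of 2 h. Of all genes, 10.6% were above 0 on the 6 arrays at 2 h, as Arg2 was.

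**Figure D1:**
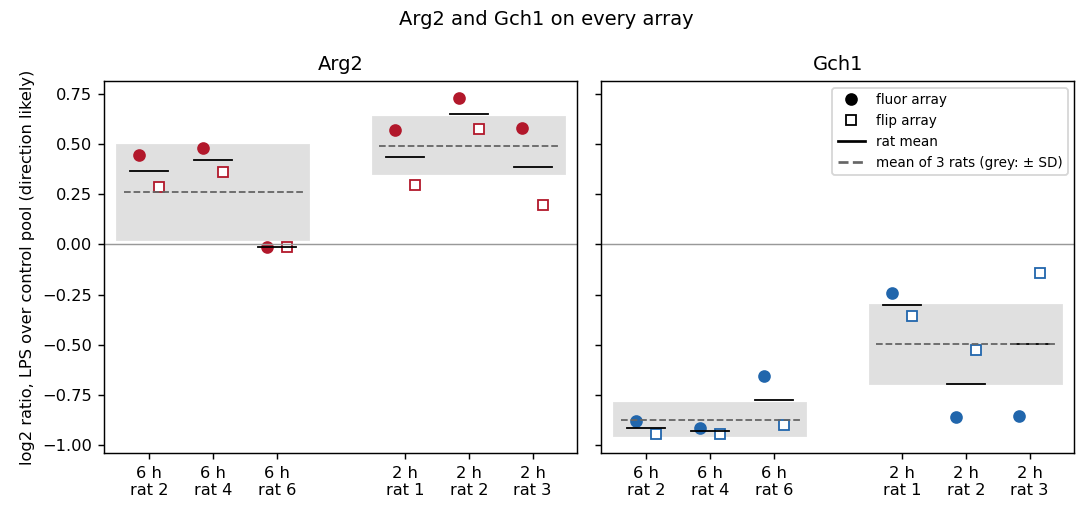
Log2 ratio (LPS over control pool, direction likely) of Arg2 and Gch1 on each array, by time and rat. Filled circles are fluor arrays, open squares flip arrays, short bars rat means, and dashed lines with grey bands the mean ± SD of 3 rats. Gch1 lies below 0 on all 12 arrays, with rat means lower at 6 h, and both Arg2 values of rat 6 at 6 h lie at 0.

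Averaged per rat, Arg2 stood at 0.37, 0.42 and -0.012 in rats 2, 4 and 6 at 6 h, against 0.44, 0.65 and 0.39 in rats 1, 2 and 3 at 2 h. Its mean was 0.26 ± 0.24 at 6 h and 0.49 ± 0.14 at 2 h (SD, n = 3 each), 1.20-fold and 1.41-fold. The groups overlapped, since rat 4 of 6 h was above rat 3 of 2 h. The difference of the means, 6 h minus 2 h, was -0.23 (standard error 0.16). Without rat 6 the mean at 6 h was 0.39 and the difference was -0.10, and without rat 2 of 2 h the difference was -0.15. The scatter of Arg2 between rats at 6 h was larger than that of 97.1% of genes.

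Counted from the highest mean, Arg2 ranked 177 of 3939 genes at 6 h and 49 at 2 h. With the flip arrays turned it stood at 0.046 at 6 h and 0.14 at 2 h, and ranked 1457 and 226. The mean absolute difference between a rat's pair of arrays was 0.18 for Arg2 and 0.25 for Gch1, against a median of 0.15 over all genes. None of the 24 values of the 2 members was the repeated value that 242 to 298 probes shared on each array.

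In every rat the ratio of Arg2 was above that of Gch1. The gap, Arg2 minus Gch1, was 1.28, 1.35 and 0.77 in rats 2, 4 and 6 at 6 h, against 0.74, 1.35 and 0.89 in rats 1, 2 and 3 at 2 h. It averaged 1.13 ± 0.32 at 6 h and 0.99 ± 0.32 at 2 h (SD, n = 3 each), so the groups overlapped. The 2 genes were most displaced in the same rats: rat 4 had the highest Arg2 and the lowest Gch1 of the 6 h rats, and rat 2 did so at 2 h. Rat 6, with Arg2 at 0, also had the Gch1 value nearest to 0 of its time. The spread over all genes was narrower in rat 6 as well, with a standard deviation of 0.22 against 0.25 in rats 2 and 4. At 2 h it was 0.27 in rat 2 against 0.23 and 0.24 in rats 1 and 3. The part of this spread in the values of Arg2 and Gch1 was not tested.

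**Figure D2:**
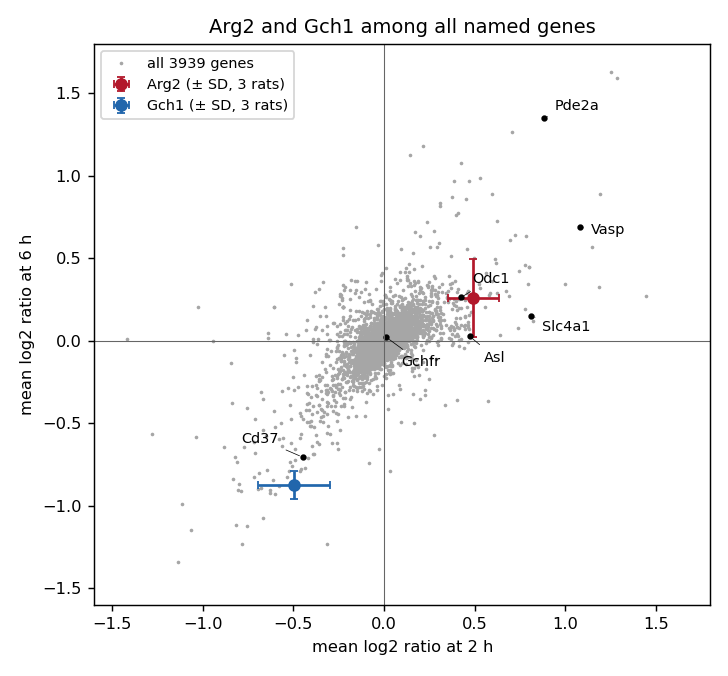
Mean log2 ratio at 6 h (vertical) against that at 2 h (horizontal) for 3939 genes as grey points, 8 of which lie outside the axes. Arg2 and Gch1 are drawn with the SD over 3 rats, and black points name other genes mentioned in the text. Gch1 lies at the low edge of the cloud at both times, and Arg2 is displaced more at 2 h than at 6 h.

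On the array, Gch1 is numbered 2 probes before S100a9, a neutrophil calcium-binding protein with means of 2.70 at 6 h and 2.98 at 2 h. The 2 probes adjacent to Gch1 did not share its low values: Cnn3 stood at -0.12 at 6 h and -0.17 at 2 h, and Slc2a2 at -0.14 and -0.086. The 20 probes around Gch1 had a median of -0.032 at 6 h and -0.031 at 2 h. After this local median was subtracted on each array, Gch1 was at -0.86 at 6 h and -0.45 at 2 h. The 2 probes adjacent to Arg2 lay below 0, with Nup54 at -0.44 at 6 h and -0.26 at 2 h and Capn3 at -0.27 and -0.38. Arg2 was at 0.28 at 6 h and 0.51 at 2 h after subtraction of its local median. Whether probe number follows position on the slide is not given in the sources used here.

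**Figure D3:**
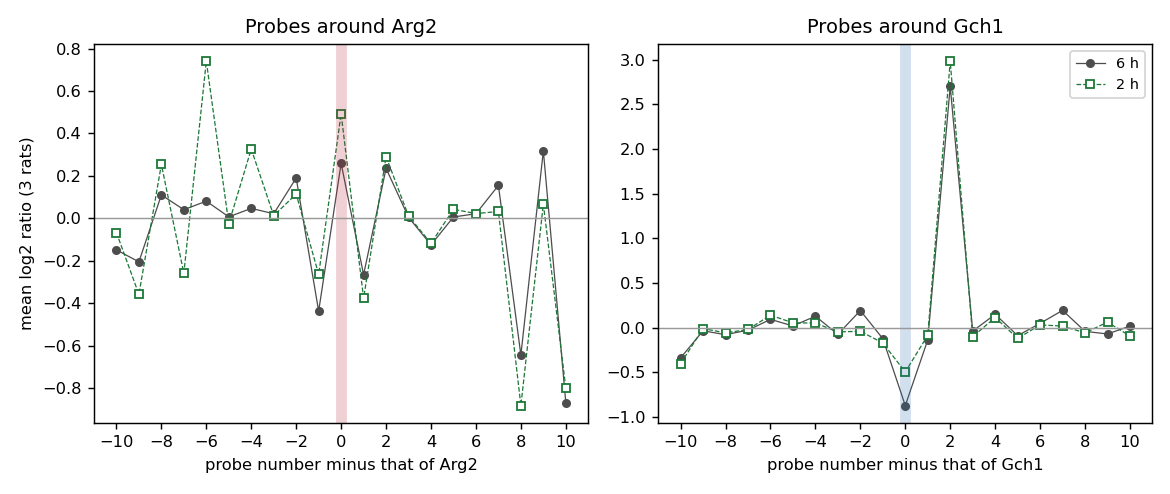
Mean log2 ratio of 3 rats at 6 h (filled circles) and 2 h (open squares) for the 10 probes on either side of Arg2 (left) and Gch1 (right), by distance in probe number. Gch1 stands below its adjacent probes at both times, with S100a9 at +2, and the probes around Arg2 scatter on both sides of 0.

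The other genes of these pathways were read from 10 lists of arginine, polyamine, nitric oxide, tetrahydrobiopterin and guanine nucleotide genes and of inducing signals. Of 123 listed genes 47 were measured, and 45 remained without the 2 members. Among these 45, limma (Benjamini-Hochberg adjusted p under 0.05 over all 3939 genes) called 10 higher and 3 lower at 6 h, and 8 higher and 4 lower at 2 h. The background over all genes was 8.3% higher and 10.7% lower at 6 h, and 9.34% higher and 9.82% lower at 2 h. The list of inducing signals held 5 of the genes called higher at 6 h and 2 of those at 2 h. The lists were chosen with earlier results of these data known, so these counts are not an independent comparison with the background. Between the times, 6 h minus 2 h, 1 of the 45 (Il1b) was called lower and 0 higher, against 0.178% and 0.33% of all genes. The median of the 45 genes was 0.028 at 6 h and 0.017 at 2 h, against 0.0069 and -0.0070 over all genes.

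Tetrahydrobiopterin synthesis, recycling and feedback had 6 measured genes, and the 5 beside Gch1 had means between -0.19 and 0.092 at 6 h and between -0.15 and 0.092 at 2 h. Gchfr, the feedback regulatory protein that binds the Gch1 enzyme, stood at 0.022 ± 0.064 at 6 h and 0.012 ± 0.042 at 2 h (adjusted p = 0.685 and 0.818). Sepiapterin reductase (Spr), which makes the last step of the synthesis, stood at 0.036 ± 0.13 at 6 h and -0.015 ± 0.14 at 2 h (adjusted p = 0.723 and 0.882). Qdpr, which regenerates tetrahydrobiopterin after use, stood at 0.020 ± 0.043 at 6 h and 0.092 ± 0.065 at 2 h (adjusted p = 0.715 and 0.106). Over 17 processing alternatives Qdpr ran from -0.036 to 0.33 at 6 h and from 0.024 to 0.42 at 2 h. Its adjusted p by limma ran from 0.0120 to 0.963 and from 0.00606 to 0.455, so some alternatives passed the threshold. The aldo-keto reductase Akr1b1, listed for the salvage branch, fell by 0.19 ± 0.037 at 6 h and by 0.15 ± 0.043 at 2 h (adjusted p = 0.00635 and 0.0173). Its fall at 2 h missed the threshold without rat 2 (adjusted p = 0.0812) and without rat 3 (0.0568). On the flip arrays alone Akr1b1 stood at -0.10 at 6 h and -0.092 at 2 h (adjusted p = 0.237 and 0.350), and both calls were also lost with the adjacent 2 probes subtracted (0.139 and 0.413). Pts, the synthase between Gch1 and Spr, and the aromatic amino acid hydroxylases were not analysed here.

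Around arginase, 3 other urea cycle genes were measured and limma called 0 of them at 6 h (0 also at an unadjusted p under 0.05). Argininosuccinate lyase (Asl), which releases arginine, rose at 2 h by 0.47 ± 0.22 (adjusted p = 0.00739) and stood at 0.028 ± 0.070 at 6 h (adjusted p = 0.817). Its rise rested on the flip arrays, with a mean at 2 h of 0.81 there and 0.13 on the fluor arrays (adjusted p = 0.413). At 6 h Asl had means of -0.23 on the fluor and 0.28 on the flip arrays, so its average near 0 joined opposite signs. Argininosuccinate synthase (Ass1), the step before it, stood at -0.0075 ± 0.045 at 6 h and -0.040 ± 0.078 at 2 h (adjusted p = 0.902 and 0.464). Arg1, the cytosolic arginase of liver and of alternatively activated macrophages, and Nos1, Nos2 and Nos3 were not analysed here.

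Downstream of arginase, ornithine decarboxylase (Odc1), which starts polyamine synthesis from ornithine, was the 1 gene of 4 in its list to be called, and it rose at both times. Per rat it stood at 0.18, 0.26 and 0.35 at 6 h (rats 2, 4 and 6), against 0.41, 0.40 and 0.46 at 2 h (rats 1, 2 and 3). Its mean was 0.26 ± 0.085 at 6 h (adjusted p = 0.00462) and 0.42 ± 0.034 at 2 h (adjusted p = 0.000876). All 6 rats were above 0, and rat 6, in which Arg2 was at 0, had the highest Odc1 of the 6 h rats. On the fluor arrays alone Odc1 at 6 h was 0.13 (adjusted p = 0.101). The 3 genes of the proline and creatine branches (Oat, Gatm and Gamt) were not called at either time, with means between -0.092 and 0.17. Of 2 arginine transport genes, Slc7a9, the light chain of a cystine and basic amino acid transporter known from kidney and intestine, rose at 6 h (0.28 ± 0.070, adjusted p = 0.00639). On the flip arrays alone Slc7a9 stood at 0.13 (adjusted p = 0.238). Slc7a1, the general cationic amino acid transporter, stood at 0.091 ± 0.046 at 6 h and 0.0099 ± 0.051 at 2 h (adjusted p = 0.0968 and 0.851).

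On the nitric oxide side, 4 regulators of the synthases were measured and only Nos1ap, an adaptor of the neuronal synthase, was called, at 0.13 ± 0.034 at 6 h and 0.11 ± 0.040 at 2 h (adjusted p = 0.0267 and 0.0428). That call was lost at either time when any 1 rat of that time was left out, and on the fluor arrays alone (adjusted p = 0.266 at 6 h and 0.116 at 2 h). Among 4 targets of nitric oxide signalling, Pde2a, a phosphodiesterase stimulated by cyclic GMP, stood at 1.35 ± 0.18 at 6 h and 0.88 ± 0.046 at 2 h (adjusted p = 7.7e-05 and 0.000432). Vasp, an actin regulator phosphorylated by the cyclic GMP-dependent kinase, stood at 0.69 ± 0.23 at 6 h and 1.08 ± 0.28 at 2 h (adjusted p = 0.00755 and 0.00153). On the flip arrays alone Vasp at 6 h was 0.47 (adjusted p = 0.0699). The guanylate cyclase subunit Gucy1b1 was called at 2 h (0.16 ± 0.11, adjusted p = 0.0492), and missed the threshold with any 1 of the 6 rats left out. Its partner subunit Gucy1a1 stood at -0.079 ± 0.032 at 6 h and 0.022 ± 0.080 at 2 h (adjusted p = 0.168 and 0.689).

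Of 19 genes listed for the supply of guanine nucleotides, the substrate of Gch1 among them, 10 were measured. Limma called 0 of these 10 higher at either time (0 also at an unadjusted p under 0.05), and 2 fell at 6 h and 3 at 2 h. Over all genes, 10.7% were called lower at 6 h and 9.82% at 2 h. The nucleoside diphosphate kinase Nme2 stood at -0.31 ± 0.11 at 6 h and -0.31 ± 0.15 at 2 h (adjusted p = 0.0168 and 0.0185). Its relative Nme1 stood at -0.12 ± 0.090 at 6 h and -0.24 ± 0.022 at 2 h (adjusted p = 0.0694 and 0.00744). Transcripts as similar as these can cross-hybridise on an array, so their values may not be separate. Atic, which makes the last steps of purine synthesis, stood at -0.25 ± 0.040 at 6 h and -0.14 ± 0.077 at 2 h (adjusted p = 0.00473 and 0.0436). Nme2 missed the threshold at 6 h without rat 2 (adjusted p = 0.112) or rat 4 (0.0848) and at 2 h without rat 1 (0.0521) or rat 3 (0.0555), and Atic at 2 h without any 1 of the 6 rats. On the flip arrays alone the adjusted p was 0.0575 at 6 h and 0.134 at 2 h for Nme2, 0.0820 at 2 h for Nme1 and 0.164 at 2 h for Atic. With the adjacent 2 probes subtracted, the calls at 6 h were lost for Nme2 (-0.049, adjusted p = 0.504) and Atic (-0.047, 0.442).

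Of 10 measured genes in the list of signals known to induce Nos2 or Gch1, limma called 5 higher at 6 h and 2 at 2 h. Over all genes, 8.3% were called higher at 6 h and 9.34% at 2 h. This list too was chosen with earlier results of these data known. Of the 10, limma called 0 lower, with 3 lower at 6 h and 0 at 2 h at an unadjusted p under 0.05. Those 3 were Jak1 (-0.076), Nfkb1 (-0.099) and Nfkbia (-0.11). Nfkbia encodes an inhibitor of the transcription factor that Nfkb1 is part of, so it is not itself an inducing signal. The cytokine gene Il1b stood at 2.05 ± 0.13 at 6 h and 3.90 ± 0.31 at 2 h (adjusted p = 8.4e-05 and 6.7e-06), and Irf1, an interferon-regulated transcription factor, at 0.46 ± 0.097 and 0.21 ± 0.038 (adjusted p = 0.000597 and 0.0160). Tnf (0.22 ± 0.046), Cebpb (0.35 ± 0.19) and the LPS receptor Tlr4 (0.17 ± 0.094) were called at 6 h alone (adjusted p = 0.00636, 0.0120 and 0.0247). Each of those 3 calls was lost with some 1 rat left out, Tnf without rat 2 of 6 h (adjusted p = 0.0555), Cebpb without rat 2 (0.0832) or rat 6 (0.0568) and Tlr4 without any 1 of the 6 h rats. The call of Irf1 at 2 h was lost without any 1 of the 2 h rats (adjusted p = 0.0713, 0.0575 and 0.0520 without rats 1, 2 and 3) and on the flip arrays alone (0.11, adjusted p = 0.545). On the fluor arrays alone Tnf at 6 h was 0.038 (adjusted p = 0.701) and Tlr4 0.098 (0.0803). In the same samples Gch1 was below 0 on every array as deposited, and a link between these signals and Gch1 was not tested.

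**Figure D4:**
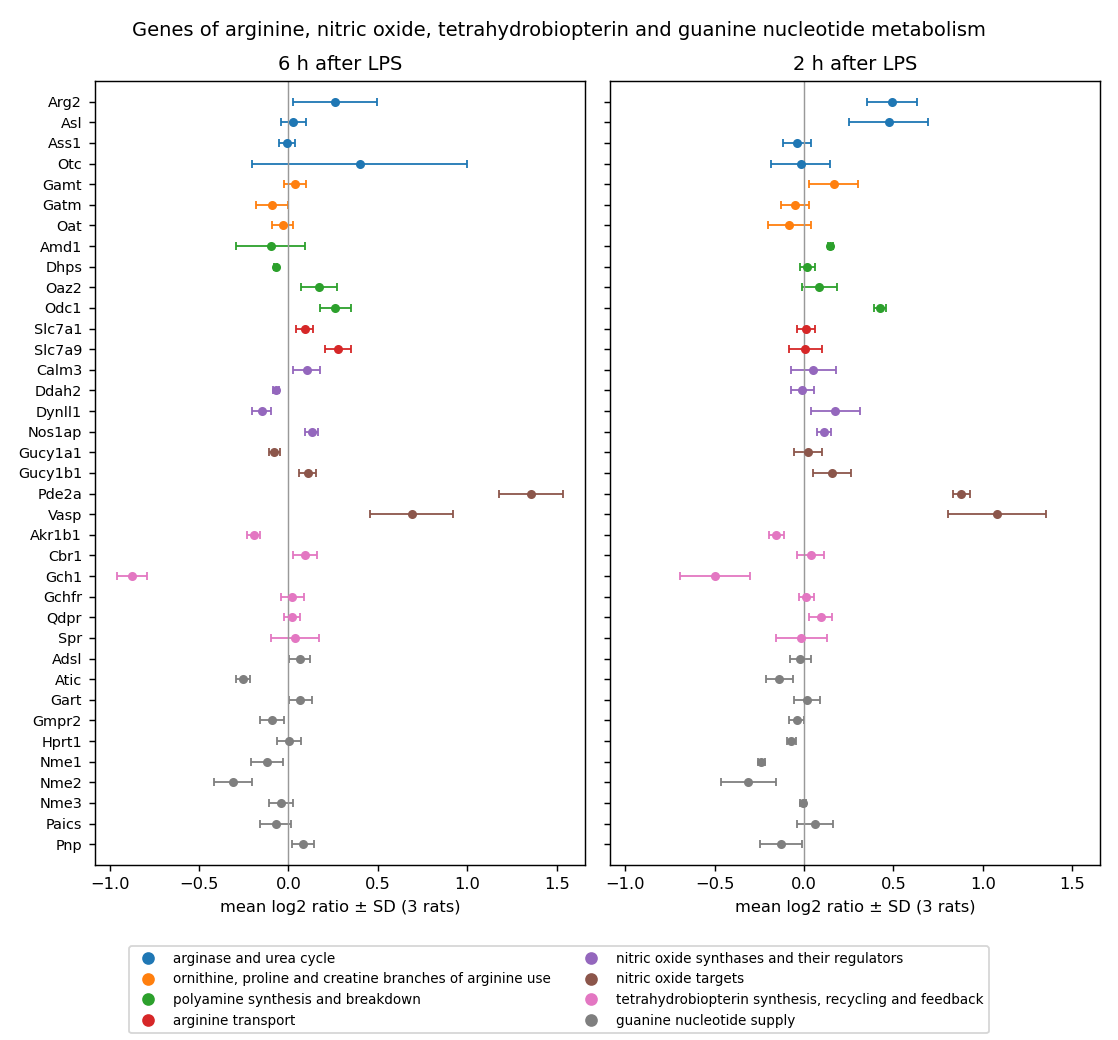
Mean log2 ratio ± SD of 3 rats at 6 h (left) and 2 h (right) for the measured genes of 8 pathway lists, with Arg2 and Gch1 in their lists, coloured by list. Gch1 has the lowest mean of these genes at both times, and Pde2a and Vasp the 2 highest.

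The genes most like each member were found by the root mean square difference over the 6 rat means, among 3938 other genes. For Arg2 the nearest were Pcid2 (difference 0.068), Rhno1 (0.081), Add2, a membrane skeleton protein of red cells (0.10), Bdh1 (0.11) and Tspan8 (0.12), against a median of 0.44. Over the 12 arrays their Pearson correlations with Arg2 were 0.94, 0.81, 0.81, 0.81 and 0.32 in that order. For Gch1 the nearest were the ribosomal protein genes Rps28 (0.098), Rpl30 (0.12) and Rpl6 (0.12), the class II gene RT1-Ba (0.11) and the cathepsin gene Ctse (0.16), against a median of 0.73. Their correlations with Gch1 over the 12 arrays were 0.92 for Rps28, 0.91 for Rpl30, 0.70 for Rpl6, 0.85 for RT1-Ba and 0.72 for Ctse. The 2 arrays of a rat share their RNA and the 3 rats of a time share a control pool, so these correlations are descriptions. The genes were also picked for closeness over these same rat means, so small differences and high correlations follow in part from that choice.

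Markers of blood cell types are given beside both members. Over all genes, limma called 8.3% higher and 10.7% lower at 6 h, and 9.34% higher and 9.82% lower at 2 h. The mean over 7 of 10 listed erythroid genes ran from -0.067 to 0.16 in the 6 h rats and from 0.21 to 0.36 in the 2 h rats. Limma called 0 of these 7 higher at 6 h (1 at an unadjusted p under 0.05) and 3 lower, the globin genes Hba-a1, Hbb and Hbb-b1. At 2 h it called 3 higher (Alas2, Car2 and Slc4a1) and 1 lower (Hba-a1). Slc4a1, the red cell anion exchanger, stood at 0.22, 0.43 and -0.21 in rats 2, 4 and 6 at 6 h (adjusted p = 0.408), against 0.58, 0.85 and 1.00 in rats 1, 2 and 3 at 2 h (adjusted p = 0.00586). At 6 h it was lowest in the rat with the lowest Arg2, and at 2 h its order was not that of Arg2.

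Over 3 of 11 T cell genes the mean ran from -0.38 to -0.31 in the 6 h rats and from -0.32 to -0.14 in the 2 h rats. Of these, Cd3d and Lef1 were called lower at both times and Cd5 at neither (adjusted p = 0.241 at 6 h and 0.409 at 2 h). Cd3d stood at -0.52, -0.66 and -0.88 in rats 2, 4 and 6 at 6 h. At 2 h it stood at -0.47, -0.44 and -0.27 in rats 1, 2 and 3. At 6 h Cd3d was thus lowest in rat 6, the rat with Gch1 nearest to 0. Over 2 of 7 B cell genes the mean ran from -0.43 to -0.38 at 6 h and from -0.33 to -0.23 at 2 h. Cd37 was at -0.67, -0.74 and -0.71 in rats 2, 4 and 6 at 6 h. At 2 h it was at -0.36, -0.46 and -0.52 in rats 1, 2 and 3. Cd37 was called lower at both times and did not overlap between them. Of all genes, 10.1% did not overlap with 6 h lower. Blnk, the other B cell gene, ran from -0.19 to -0.063 at 6 h and from -0.19 to -0.11 at 2 h, so its groups overlapped, and it was called at 2 h (adjusted p = 0.0403) but not at 6 h (0.0532).

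The mean over 3 of 12 neutrophil genes ran from 0.92 to 1.26 in the 6 h rats and from 1.08 to 1.32 in the 2 h rats. S100a9 and Lcn2 were called higher at both times, and S100a8 stood at -0.053 at 6 h and -0.083 at 2 h (adjusted p = 0.438 and 0.235). Over 3 of 8 NK and cytotoxic genes the mean ran from 0.64 to 0.78 at 6 h and from 0.44 to 0.61 at 2 h. Gzmc held most of it, at 1.87 at 6 h and 1.17 at 2 h, while Il2rb stood at -0.033 at 6 h and 0.42 at 2 h and Prf1 at 0.27 and 0.0095. Over 3 of 11 monocyte and macrophage genes the mean ran from -0.29 to -0.11 at 6 h and from -0.29 to -0.15 at 2 h. C1qb stood at -0.21 at 6 h and -0.20 at 2 h and C1qc at -0.37 and -0.32, while Lyz2 stood at -0.010 and -0.070 (limma adjusted p = 0.897 and 0.330). Over 2 of 6 platelet genes the mean ran from -0.42 to -0.025 at 6 h and from 0.071 to 0.38 at 2 h. Of these, Pf4 stood at -0.39 at 6 h and 0.34 at 2 h, and Gp9 at 0.022 and 0.18.

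Over 7 of 8 liver genes the mean ran from 0.047 to 0.16 at 6 h and from 0.15 to 0.31 at 2 h. Transferrin (Tf) stood at 0.27 at 6 h and 1.44 at 2 h, and the median difference of the list, 6 h minus 2 h, was 0.023, with 5 of 7 genes above 0. Over 4 of 5 endothelial genes the mean ran from -0.0034 to 0.085 at 6 h and from -0.056 to 0.013 at 2 h. At 6 h limma called Cdh5 higher (0.16, adjusted p = 0.0361) and Tek lower (-0.16, adjusted p = 0.0239). It called 0 of the 4 at 2 h. The part of any cell type in the values of Arg2 and Gch1 was not tested.

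**Figure D5:**
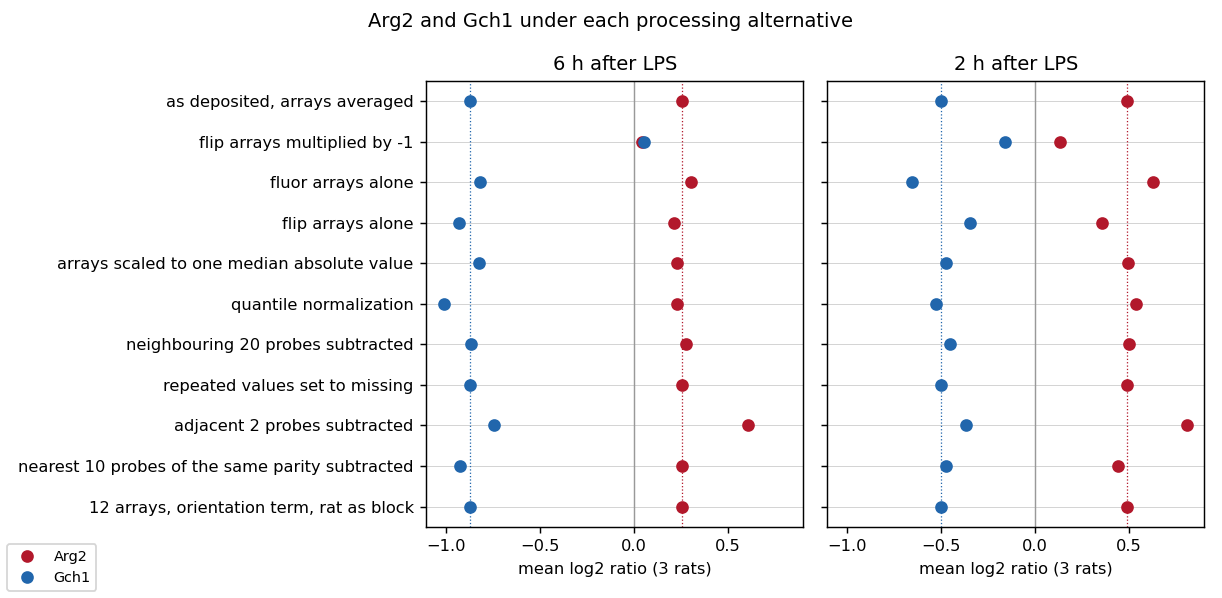
Mean log2 ratio of Arg2 and Gch1 over 3 rats at 6 h (left) and 2 h (right) as deposited and under each processing alternative, with dotted lines at the value as deposited. With the flip arrays multiplied by -1 both genes lie near 0 at 6 h, and under the others Gch1 stays below 0 and Arg2 above 0.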

How the data were processed

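The table used holds the values the authors deposited, 1 log2 ratio of the 2 channels per probe for 7200 probes on 12 arrays, per the file headers, with 2 channels per array per the labels. The sources used here do not state the scanner, the dyes, the background correction or the normalization. The median ratio per array was between -0.020 and 0.0083, close to 0 on all 12. No intensities or depths were at hand, and the number of arrays limits the precision. Probes were named from the platform annotation, with symbols updated by gene ID through the GRCr8 gene table: 4190 probes had 1 symbol, 46 had several and 2964 had none. Probes of a gene were averaged, which gave 3939 genes.

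The 2 arrays of each rat were averaged. Rat means of all 6 rats were fitted with limma 3.58.1 in R 4.3.3 (lmFit, eBayes, group means, 4 residual degrees of freedom), with Benjamini-Hochberg adjusted p under 0.05 as the threshold and no filter on low values. Nothing says how the rats were housed or processed, so p-values measure the spread between these rats.

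Members and lists were chosen with earlier results of these data known. Named by rule were both members, called genes of the pathway lists, preset pathway enzymes and the 5 genes most like each member. Ass1, Otc, Slc7a1, Gucy1a1, Oat, Gatm, Gamt and the marker and neighbouring genes given beside them fall outside that rule and were chosen after their values were seen.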

Additional observations from a re-analysis of the deposited data

Results flagged for a closer look

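Il1b was the 1 pathway gene with a called difference between the times, 6 h minus 2 h, at -1.86 (limma adjusted p = 0.00735). It stood at 2.05 ± 0.13 at 6 h and 3.90 ± 0.31 at 2 h (SD, n = 3 each), and all 6 rats were above 0. The call was lost under several alternatives, with adjusted p from 0.000204 to 0.802 over all of them, and without rat 2 of 6 h it was 0.0554.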

How the results depend on the processing

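No paired analysis was possible because the labels give the 2 times only rat number 2 in common. Each member has 1 probe, so no choice among probes could be tried. With the flip arrays multiplied by -1, the other reading of the direction, Gch1 stood at 0.057 at 6 h, -0.16 at 2 h and 0.21 for 6 h minus 2 h, and Arg2 at 0.14 at 2 h. Under the remaining alternatives the members kept their signs. Gch1 at 6 h was -1.01 with quantile normalization and -0.74 with the adjacent 2 probes subtracted, where Arg2 was 0.61 at 6 h and 0.81 at 2 h (added after seeing the data, as was subtraction of the nearest 10 probes of the same parity). Gch1 for 6 h minus 2 h was -0.16 on fluor and -0.59 on flip arrays alone.

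With 1 rat left out, Gch1 ran from -0.92 to -0.85 at 6 h, from -0.60 to -0.40 at 2 h and from -0.47 to -0.28 for 6 h minus 2 h. Arg2 ran from 0.18 to 0.39, from 0.41 to 0.54 and from -0.32 to -0.098.

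Genes called numbered 749 at 6 h, 755 at 2 h and 20 for 6 h minus 2 h. With 1 rat left out they ran from 306 to 927, from 323 to 668 and from 2 to 31. Fluor arrays alone gave 1202, 1142 and 4, and flip arrays alone 336 at 2 h and 5 for the difference. Flip arrays multiplied by -1 gave 1461 at 6 h and 0 for the difference by limma (484 at an unadjusted p under 0.05). Quantile normalization gave 8 and the 12-array fit with the rat as a random block 131 for the difference.

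Of 26 calls on named pathway genes, 2 held with the flip arrays multiplied by -1 (Slc7a9 at 6 h and Vasp at 2 h) and 5 passed the threshold with the opposite sign (Asl at 2 h, Odc1 at both times, Pde2a and Tnf at 6 h; adjusted p from 0.0120 to 0.0329). Turned in sign there were Asl (-0.25 at 6 h, -0.34 at 2 h), Atic (0.047, 0.0048), Gucy1b1 (-0.095, -0.046), Nos1ap (-0.068, -0.021), Odc1 (-0.13, -0.15) and Pde2a (-0.13, -0.026), and at 6 h Irf1 (-0.030), Tlr4 (-0.075) and Tnf (-0.18). With the adjacent 2 probes subtracted, at 2 h Atic was 0.013, Nme2 0.060 and Gchfr -0.21 (adjusted p = 0.0389, past the threshold there). Of the 26 calls 15 held on flip and 18 on fluor arrays alone, and 17 to 21 with 1 rat left out.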

Other observations

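Ornithine transcarbamylase (Otc), the liver enzyme that joins ornithine to the urea cycle, gave opposite ratios on the arrays of every rat. On the fluor arrays it ran from -1.62 to -1.10 at 6 h and from -1.81 to -0.93 at 2 h, and on the flip arrays from 1.45 to 3.50 at 6 h and from 0.99 to 2.04 at 2 h. The mean absolute difference within a rat, 3.24, was larger than that of 99.8% of genes. Averaged per rat, Otc stood at 0.40 ± 0.60 at 6 h and -0.019 ± 0.17 at 2 h (SD, n = 3 each; limma adjusted p = 0.183 and 0.952). For Gch1, with a mean absolute difference of 0.25, the sign was the same on both arrays of every rat.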
